A study of Mus musculus with 19 samples.

Results

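The genes described here carry oxygen or make the haem that binds it: Hbb-b2 (a beta-globin chain of adult blood), Hba-a1 (an alpha-globin chain), Alas2 (the erythroid form of aminolevulinate synthase) and Mb (myoglobin). These 4 genes were listed by name and were picked partly from measured values, since Hbb-b2 was known to be low in aged knockout muscle. They were found through the platform annotation of the array. It assigned 10 of the 22626 probe sets on the array to them, out of 13319 named genes. Of these 10 probe sets, 6 named 1 listed gene alone and 4 also named a paralog, and 1 further probe set that named only the paralog Hba-a2 was kept beside them.

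Haemoglobin is a tetramer of alpha and beta chains made by red cell precursors, and young red cells that have lost the nucleus still carry globin and Alas2 transcripts into the circulation. Alas2 catalyses the first step of haem synthesis in the erythroid lineage, whereas other cells use Alas1 for it. Myoglobin is a single-chain haem protein of muscle fibres that stores oxygen, and it is most abundant in oxidative fibres.

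The arrays measured RNA of the tibialis anterior, a fast muscle of the lower leg, in 129/SVE mice. There were 5 arrays from desmin knockout animals of 7 to 9 weeks (KO_Adult), 5 from wild-type animals of that age (WT_Adult), 4 from knockout animals of 12 to 14 months (KO_Aged) and 5 from wild-type animals of that age (WT_Aged). Desmin is the intermediate filament protein of muscle, and the labels do not describe the construct that removed it. Every muscle, wild-type ones included, had performed 50 eccentric contractions, in which it is stretched while active, 12 h earlier. No label says whether blood was washed out of the muscle, or whether each array stands for an animal of its own, and the p-values therefore cover only array-to-array spread, technical or not. The number that ends each title was read as a code by its first 4 digits, and any further digit was left aside. WT_Adult replicates 3, 4 and 5 share such a code, as do KO_Adult replicates 3 and 4. Another is shared by KO_Aged replicate 4 with WT_Aged replicates 4 and 5. The labels do not say what the codes mean.

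The brighter Des probe set read 311 to 879 in KO_Adult and 72.7 to 636 in KO_Aged, against 13700 to 22313 in WT_Adult and 10749 to 12736 in WT_Aged, so every array followed its genotype label. Fast fibre genes were bright in all groups: the summed signal of 12 of them was 270670 to 327296 in KO_Adult, 253981 to 456462 in WT_Adult, 290567 to 332847 in KO_Aged and 238104 to 303674 in WT_Aged. The dap poly-A control, an RNA added to a sample before labelling, read 607 to 1554 on 8 arrays, namely KO_Adult replicates 3, 4 and 5 and all 5 WT_Aged arrays, and 1.43 to 29.7 on the other 11. The 18S ribosomal RNA probe set split the same arrays, at 5835 to 19660 on the 8 and 29.1 to 181 on the other 11. No label names this split or says how it arose. It is called the poly-A split below and is treated as a batch. On KO_Aged replicates 2 and 3 the Gapdh 3' to 5' ratio, a measure of RNA integrity, was 8.61 and 5.01, against 0.766 to 0.968 on the other 17 arrays. On WT_Adult replicates 3, 4 and 5 the brightest probe set of the array read 36226 to 46963, against 27433 to 34255 on the other 16 arrays.

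The sequences just upstream of Hbb-bs, Hbb-bt, Hba-a1, Alas2 and Mb are shown as background, and that of Hbb-b2 is not among them. Whether these sequences bear on the signals in these samples was not tested. Each is the 250 bases before the start of the gene in RefSeq's GRCm38.p6 annotation, read along the gene's strand, and capitals mark every match, on either strand, to GATAA (the core bound by GATA factors), CACCC (the box bound by Kruppel-like factors), CCAAT or TATAA. These 4 motifs were picked with the sequences in view, overlapping matches run together in capitals, and a match is a run of letters, not a measured binding site. Hbb-bs lies at chr7:103827929-103828178 on the minus strand, Hbb-bt at chr7:103813924-103814173 on the minus strand, Hba-a1 at chr11:32283422-32283671 on the plus strand, Alas2 at chrX:150547167-150547416 on the plus strand and Mb, at 1 of its 3 annotated starts, at chr15:77022728-77022977 on the minus strand. Hbb-bs and Hbb-bt are beta chain genes that the annotation names on the same probe set as Hbb-b2. The windows are those of the reference assembly. Whether the strain measured here carries these beta genes or the same sequences was not examined.
Hbb-bs: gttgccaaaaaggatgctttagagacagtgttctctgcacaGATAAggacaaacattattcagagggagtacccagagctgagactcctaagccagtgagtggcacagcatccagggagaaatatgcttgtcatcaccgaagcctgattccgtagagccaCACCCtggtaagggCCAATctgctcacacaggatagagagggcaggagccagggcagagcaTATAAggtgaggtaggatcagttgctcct
Hbb-bt: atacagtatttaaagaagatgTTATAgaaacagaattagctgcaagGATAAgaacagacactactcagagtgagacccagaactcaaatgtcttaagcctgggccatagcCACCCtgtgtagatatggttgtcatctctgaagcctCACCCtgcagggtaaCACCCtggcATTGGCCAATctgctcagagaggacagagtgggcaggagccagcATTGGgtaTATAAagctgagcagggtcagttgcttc
Hba-a1: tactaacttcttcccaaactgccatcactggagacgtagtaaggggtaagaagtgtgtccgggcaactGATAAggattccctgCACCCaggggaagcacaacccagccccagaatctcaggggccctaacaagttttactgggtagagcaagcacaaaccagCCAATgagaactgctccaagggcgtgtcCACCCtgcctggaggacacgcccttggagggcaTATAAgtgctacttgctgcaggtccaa
Alas2: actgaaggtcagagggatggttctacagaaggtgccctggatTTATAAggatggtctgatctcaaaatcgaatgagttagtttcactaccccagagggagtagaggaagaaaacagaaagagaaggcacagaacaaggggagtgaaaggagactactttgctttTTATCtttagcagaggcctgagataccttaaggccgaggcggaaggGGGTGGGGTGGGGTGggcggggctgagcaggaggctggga
Mb: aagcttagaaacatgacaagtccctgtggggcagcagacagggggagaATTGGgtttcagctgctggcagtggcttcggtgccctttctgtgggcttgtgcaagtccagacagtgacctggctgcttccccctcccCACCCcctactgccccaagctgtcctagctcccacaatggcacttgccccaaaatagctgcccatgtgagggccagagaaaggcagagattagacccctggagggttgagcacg
GATAA occurred in all 4 windows of the blood genes and in none of the 3 Mb windows. TATAA occurred in the same 4 windows, and in the globin windows a match on the gene's strand stood 27 to 29 bases before the start. The Hbb-bt window held a second match, on the opposite strand, 229 bases before the start. CCAAT was found once in Hbb-bs and in Hba-a1, 3 times in Hbb-bt and not in Alas2, whose window held CACCC 3 times on its minus strand. Of the 32851 promoter windows in the same table, 22.6% held GATAA, 52.0% CACCC, 33.8% CCAAT and 22.8% TATAA, and 0.968% held all 4, as the windows of Hbb-bs, Hbb-bt and Hba-a1 did.

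Of the 11 probe sets, 7 passed the filter on dim values (the upper 60% by mean), and the other 4 did not. These were a second Hbb-b2 probe set at 2.73 to 172, a probe set for Hba-a1 alone at 1.88 to 37.7, one for Hba-a2 alone at 1.36 to 39.1 and a second Mb probe set at 2.91 to 43.7. Levels of different probe sets are not comparable as amounts of transcript, so only their rank on the array is given. Mb was between place 9 and place 36 from the top on every array. The 2 bright probe sets that name both Hba-a1 and Hba-a2, numbered 1 and 2 below, had median places of 60 and 62, and the probe set shared by Hbb-b2, Hbb-b1, Hbb-bs and Hbb-bt had a median place of 65. A further Hba probe set was dimmer, with a median place of 554, that of Alas2 was 4036, and that of the probe set for Hbb-b2 alone was 8136. Hybridization cannot separate Hba-a1 from Hba-a2, or the beta chain genes from each other, on the probe sets that name several of them.

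The first question was whether these genes differ between knockout and wild-type muscle in adults, the comparison that shares no array with the one through which Hbb-b2 was known. Alas2 and the dimmer Hba probe set were lower in KO_Adult than in WT_Adult and passed the test, whereas the 3 bright globin probe sets and Mb did not. The probe set for Hbb-b2 alone was lower on average but did not pass. With limma over all 19 arrays, 2 of the 7 tested probe sets were called (Benjamini-Hochberg adjusted p under 0.05), both lower in KO_Adult, beside 14.6% of all 13575 probe sets tested, with 8.54% called lower and 6.09% higher. The aged arrays enter this fit through its estimate of the spread and through normalization. With only the 2 adult groups in the model, adjusted p was 0.0436 for Alas2 and 0.0403 for the dimmer Hba probe set (limma).

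Alas2 read 501, 348, 226, 109.7 and 232 in KO_Adult replicates 1 to 5, against 4477, 726, 1679, 1129 and 572 in WT_Adult. Every KO_Adult array was below every WT_Adult array, and WT_Adult replicate 1 alone lay far above the rest. The means were 283 ± 148 in KO_Adult and 1716 ± 1602 in WT_Adult (SD, n = 5 each). On the log2 scale Alas2 fell by 2.25 (SE 0.54, limma, adjusted p = 0.0114), and the exact two-sided permutation p was 0.00794, the smallest that 252 regroupings allow. With the poly-A split as a term the difference was -1.52 and the call was lost (limma, adjusted p = 0.213). How many of all probe sets also had no overlap between these groups was not counted.

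The dimmer Hba probe set, which names Hba-a1 and Hba-a2, read 6387, 5483, 3706, 2186 and 2278 in KO_Adult, against 12678, 7531, 9332, 8229 and 6529.6 in WT_Adult. Again no KO_Adult array reached the lowest WT_Adult array. It averaged 4008 ± 1887 in KO_Adult and 8859.98 ± 2366 in WT_Adult (SD, n = 5 each) and fell by 1.30 (SE 0.36, limma, adjusted p = 0.0221, exact permutation p = 0.00794). The difference was -0.65 with the poly-A split as a term (limma, adjusted p = 0.385) and -0.99 with median centring (adjusted p = 0.0661). Leaving out WT_Adult replicate 1 or 3, or KO_Adult replicate 4 or 5, also ended this call, at differences of -1.28 to -1.12. With the title codes as a random block the difference was -1.29 and missed the threshold (limma, adjusted p = 0.0589). The lower 3 of the 5 KO_Adult values of this probe set and of Alas2 are the arrays with poly-A controls.

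Set against WT_Adult within the arrays that lack the poly-A controls, only KO_Adult replicates 1 and 2 remain. Their Alas2 signal of 348 and 501 was below the WT_Adult range of 572 to 4477, and their dimmer Hba signal of 5483 and 6387 was below the WT_Adult range of 6529.6 to 12678. Their Hbb-b2 signal of 212 and 312 lay within the WT_Adult range of 165 to 2449. Among the arrays with controls there is no WT_Adult array, so the part of the split in the 3 remaining KO_Adult arrays was not tested there.

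The probe set for Hbb-b2 alone read 312, 212, 139, 82.1 and 5.70 in KO_Adult, against 2449, 637, 421, 243 and 165 in WT_Adult. The groups overlapped, and both spread over more than 1 order of magnitude. The difference was -2.07 (SE 0.78, limma, adjusted p = 0.0817, exact permutation p = 0.0873). It passed without KO_Adult replicate 1 (-2.47) or without WT_Adult replicate 5 (-2.51), and with the poly-A split as a term it was -0.71. That this probe set reads Hbb-b2 alone rests on the annotation, and binding of other beta genes was not tested. The second, dimmer Hbb-b2 probe set read 6.92 to 121 in KO_Adult and 37.5 to 172 in WT_Adult. Its values were 2.73 to 64.1 in KO_Aged and 57.2 to 65.1 in WT_Aged, so genotypes overlapped at both ages.

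**Figure D1:**
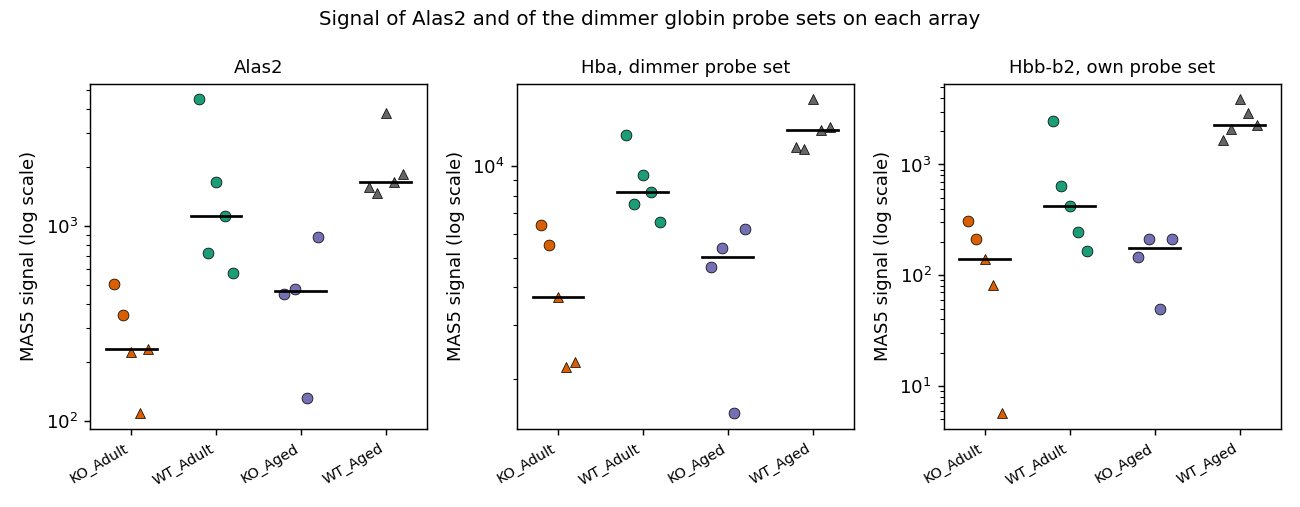
Deposited MAS5 signal (log scale) of Alas2, the dimmer Hba probe set and the probe set for Hbb-b2 alone on each of the 19 arrays, by group. Triangles are arrays with poly-A control signal, circles arrays without it, and bars are group medians. Alas2 medians were 232 in KO_Adult, 1129 in WT_Adult, 462 in KO_Aged and 1691 in WT_Aged.

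The bright globin probe sets gave another picture. The shared Hbb probe set read 16763, 19918, 15279.6, 11122 and 13106.5 in KO_Adult, against 16009, 15719, 25314.5, 26576 and 25980.4 in WT_Adult. Its high values in WT_Adult were on replicates 3, 4 and 5, the arrays with the highest maximum signal, and after normalization the difference was -0.35 (SE 0.17, limma, adjusted p = 0.165). The bright Hba probe set 1 read 17085, 21181, 19343, 14774 and 18319.5 in KO_Adult, against 15571, 16697, 23967, 25279.7 and 33303 in WT_Adult, and the bright Hba probe set 2 ranged from 13010.4 to 21925 in KO_Adult, against 15124 to 34147 in WT_Adult. The differences of the 2 bright Hba probe sets were -0.09 (SE 0.13, adjusted p = 0.646) and -0.21 (SE 0.16, adjusted p = 0.391), with exact permutation p of 0.437 and 0.254. The groups overlapped on all 3 probe sets. Whether the bright probe sets were near the upper limit of the scanner was not tested.

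**Figure D2:**
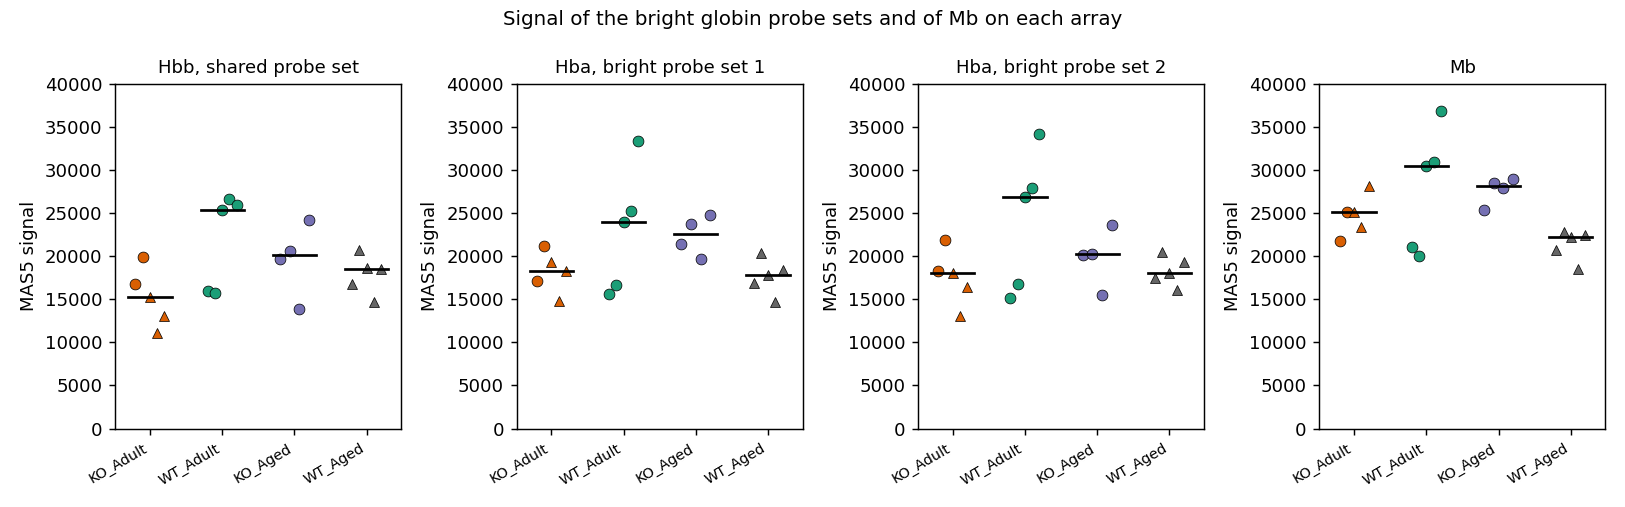
Deposited MAS5 signal (linear scale from 0) of the 3 bright globin probe sets and of Mb on each of the 19 arrays, by group, with the same symbols and with bars at group medians. On each probe set the highest value is that of WT_Adult replicate 4 or 5, and the KO_Adult, KO_Aged and WT_Aged arrays lie between 11122 and 28960.3.

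Myoglobin differed little between adult genotypes. Mb read 21719.8, 25106, 25114, 23358 and 28074 in KO_Adult, against 21019, 20022, 30505, 30932 and 36852 in WT_Adult, and the KO_Adult values lay inside the WT_Adult range. It averaged 24674 ± 2366 in KO_Adult and 27866 ± 7168 in WT_Adult (SD, n = 5 each) before normalization, and the normalized difference was 0.02 (SE 0.10, limma, adjusted p = 0.891, exact permutation p = 0.770).

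In aged muscle the genotype difference is given without a test, because Hbb-b2 was known to be low in KO_Aged when the genes were listed. Alas2 read 450.2, 474, 131 and 880.1 in KO_Aged replicates 1 to 4, against 1585, 1478, 3798, 1691 and 1856 in WT_Aged. No KO_Aged array reached WT_Aged. The difference was -2.30 (SE 0.58). The dimmer Hba probe set read 4657, 5388, 1544 and 6231 in KO_Aged, against 11559, 11339, 16574, 13128 and 13395 in WT_Aged, a difference of -1.76 (SE 0.38) with no overlap. The probe set for Hbb-b2 alone read 145, 211, 49.8 and 214 in KO_Aged, against 1651, 2081, 3879, 2894 and 2254 in WT_Aged. That difference of -4.19 (SE 0.83), also with no overlap, is the value through which Hbb-b2 was known. KO_Aged replicate 3, the lowest array on all 3 of these probe sets, is 1 of the 2 arrays with a high Gapdh ratio. Without those 2 arrays the differences were -1.71 for Alas2, -1.21 for the dimmer Hba probe set and -3.94 for Hbb-b2. Of all tested probe sets, 27.7% were called in this comparison, 12.7% lower and 15.1% higher. The share of them with no overlap between the aged groups was not counted.

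The poly-A split coincides with these 2 groups, since all WT_Aged arrays carry the poly-A controls and no KO_Aged array does. With a term for it, which rests on the KO_Adult arrays alone, the differences were larger in size: -3.51 for Alas2, -2.84 for the dimmer Hba probe set and -6.45 for Hbb-b2. The 3 KO_Adult arrays with controls can be set beside WT_Aged at a different age: Alas2 read 109.7 to 232 on them against 1478 to 3798 in WT_Aged, the dimmer Hba probe set 2186 to 3706 against 11339 to 16574, and Hbb-b2 5.70 to 139 against 1651 to 3879.

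Myoglobin was higher in KO_Aged, at 25310.5, 28455, 27895.5 and 28960.3, than in WT_Aged, at 20720.3, 22812, 22210.2, 18558 and 22400.1. The groups did not overlap, and the difference was 0.20 (SE 0.10). It was 0.31 with median centring and 0.38 with no normalization between arrays. On the 3 KO_Adult arrays with poly-A controls, which are of the younger age, Mb read 23358 to 28074, also above WT_Aged before normalization. After normalization KO_Adult replicate 3 and WT_Aged replicate 1 were level, both at 14.58. Age and genotype both differ between those arrays and WT_Aged, and the part of each was not tested. The bright globin probe sets overlapped between the aged groups. The shared Hbb probe set read 19645, 20632, 13909 and 24139.6 in KO_Aged, against 16757, 20760.1, 18569, 14714 and 18546 in WT_Aged, with KO_Aged replicate 3 lowest and replicate 4 highest among the aged arrays. It differed by -0.01 (SE 0.18), and the 2 bright Hba probe sets by 0.25 (SE 0.14) and -0.02 (SE 0.17).

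Between ages in wild-type muscle, WT_Aged minus WT_Adult was 0.59 (SE 0.54) for Alas2, 0.65 (SE 0.36) for the dimmer Hba probe set, 2.41 (SE 0.78) for Hbb-b2 and -0.08 (SE 0.10) for Mb. The groups overlapped for each of them. Of all probe sets tested, 38.8% were called in this comparison, 18% higher and 20.8% lower, and it lies wholly across the poly-A split. Between ages in knockout muscle, KO_Aged minus KO_Adult was 0.55 (SE 0.58) for Alas2, 0.19 (SE 0.38) for the dimmer Hba probe set, 0.29 (SE 0.83) for Hbb-b2 and 0.09 (SE 0.10) for Mb, beside 6.74% of probe sets called. Even at this small difference the Mb values of the knockout groups did not overlap after normalization, although they did before it. The genotype difference in aged muscle minus that in adult muscle was -0.05 (SE 0.79) for Alas2, -0.46 (SE 0.52) for the dimmer Hba probe set, -2.12 (SE 1.14) for Hbb-b2 and 0.17 (SE 0.14) for Mb, and these were not tested.

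**Figure D3:**
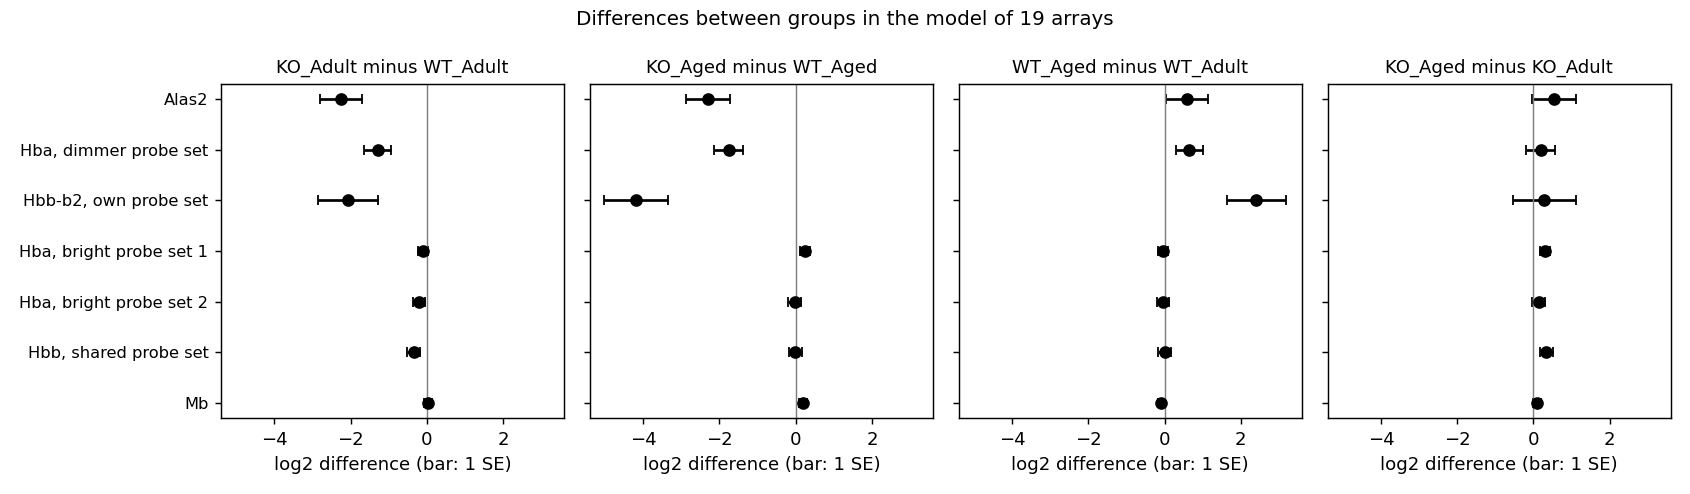
Normalized log2 differences of the 7 tested probe sets in 4 comparisons, with points for the model's estimate and bars of 1 SE. Alas2, the dimmer Hba probe set and Hbb-b2 lie below 0 in both genotype comparisons (-2.25, -1.30 and -2.07 in adults), while the bright globin probe sets and Mb lie within 0.35 of 0 in all 4.

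From low to high, the group means of Alas2 were those of KO_Adult (283 ± 148, n = 5), KO_Aged (484 ± 307, n = 4), WT_Adult (1716 ± 1602, n = 5) and WT_Aged (2081 ± 969.6, n = 5), each with its SD. The ranges of KO_Aged and KO_Adult overlapped, as did those of WT_Aged and WT_Adult and those of KO_Aged and WT_Adult. The dimmer Hba probe set and Hbb-b2 followed the same order of means, with 13199 ± 2097 and 2552 ± 866 in WT_Aged (SD, n = 5) at the top. The bright globin probe sets did not follow this order. On each of them the mean before normalization was lower in WT_Aged than in KO_Aged, at 17869 and 19581 on the shared Hbb probe set. Why probe sets that name the same genes differed was not tested. In these bulk samples, fewer red cells in the muscle and less transcript per cell cannot be told apart. In the aged groups neither can be told apart from the poly-A split, which coincides with genotype there.

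The 3 blood probe sets outside the bright range varied together over the 19 arrays. Between Alas2 and the dimmer Hba probe set Pearson's r was 0.948 and Spearman's rho 0.963, given as a description with no test because the aged arrays through which Hbb-b2 was known are among them. Without the 2 arrays farthest from the median of Alas2, r was 0.958. It was 0.978 over the 8 arrays with poly-A controls, 0.910 over the 11 without them and 0.856 over deviations from the group means, so arrays of 1 group also differed in both. Between Alas2 and Hbb-b2, r was 0.862 and rho 0.867, and between the dimmer Hba probe set and Hbb-b2, r was 0.900 and rho 0.919. Over deviations from the group means r was 0.686 for the first pair and 0.721 for the second.

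The bright probe sets were closest to each other. The shared Hbb probe set and the bright Hba probe set 2 had r = 0.915 and rho = 0.871, and the bright Hba probe set 1 had r = 0.723 with the shared Hbb probe set and 0.749 with the bright Hba probe set 2. Alas2 had r = 0.594 (rho 0.488) with the shared Hbb probe set, 0.372 (rho 0.282) with the bright Hba probe set 2 and -0.04 (rho -0.08) with the bright Hba probe set 1. The dimmer Hba probe set had r = 0.658 (rho 0.412) with the shared Hbb probe set, 0.496 (rho 0.253) with the bright Hba probe set 2 and 0.01 (rho -0.14) with the bright Hba probe set 1. For Mb, r was -0.496 with Alas2 (rho -0.484), -0.600 with the dimmer Hba probe set (rho -0.642) and -0.692 with Hbb-b2 (rho -0.721). With the bright probe sets it was 0.520 for Hba probe set 1 (rho 0.512), 0.034 for Hba probe set 2 and 0.0011 for the shared Hbb probe set, so Mb was not opposite to all the blood probe sets. Over deviations from the group means the 3 negative values were -0.05, -0.19 and -0.40, and that with the bright Hba probe set 1 was 0.365. All points share the array's labelling and hybridization.

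**Figure D4:**
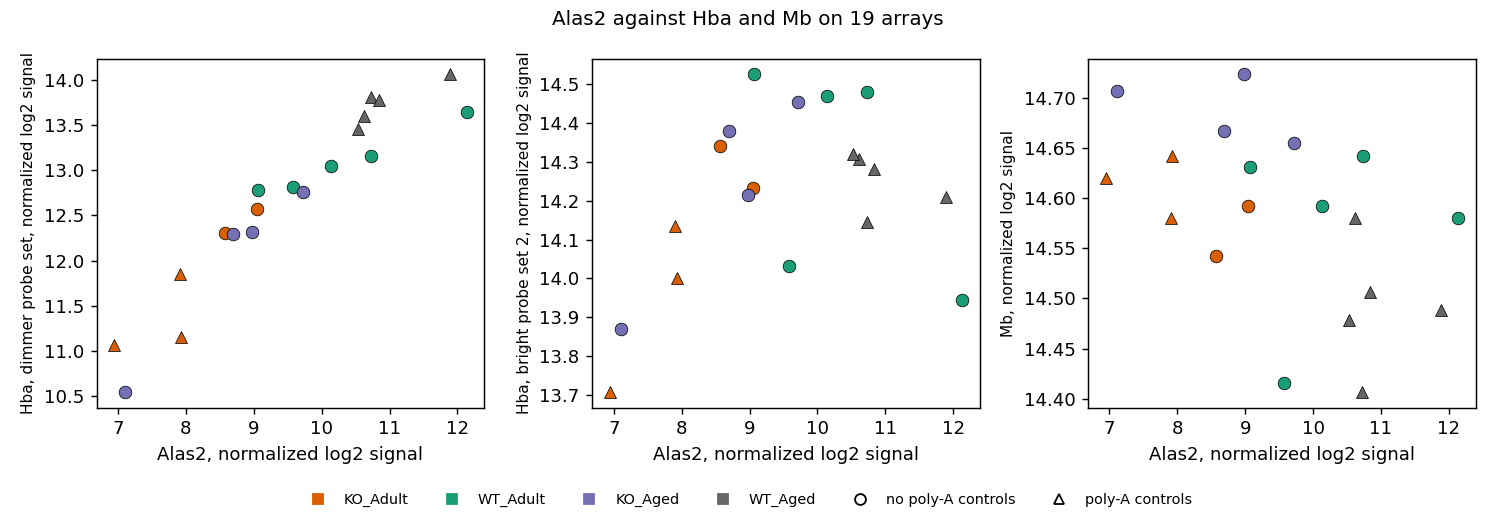
Normalized log2 signal of the dimmer Hba probe set, a bright Hba probe set and Mb (vertical axes) against Alas2 (horizontal axis), 1 point per array, coloured by group, with triangles for arrays with poly-A controls. The dimmer Hba probe set follows Alas2 along 1 line through all groups (r = 0.948), the bright one spreads widely and Mb falls slightly.

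By likeness to Alas2 over the 19 arrays, the nearest of 12394 probe sets with a single other gene were those of Tent5c (a poly(A) polymerase, r = 0.961), Mkrn1 (a ubiquitin ligase, 0.910), Slc4a1 (the band 3 anion exchanger, 0.877), Rsad2 (viperin, an interferon-induced protein, 0.875) and Car2 (carbonic anhydrase 2, 0.869). For Hbb-b2 alone and the dimmer Hba probe set, which were added after their values were seen, Tent5c was again nearest, at 0.933 and 0.948. The nearest to Mb were Tsc22d1 (0.868), Arhgef12 (0.824), Gnas (0.819), Son (0.817) and Tmem106b (0.817). The nearest to the shared Hbb probe set was Twsg1 (0.753), and to the brightest Hba probe set Cept1 (0.809).

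Markers of red cells and their precursors were mostly too dim to test: of 20 measured, 6 passed the filter, and none of the others, Gata1 and Klf1 (erythroid transcription factors), Epb42 (a membrane protein) and Car1 (a carbonic anhydrase) among them, had a group mean above 100. Of the 6 tested, 1 was called lower and none higher in KO_Adult against WT_Adult, with a median difference of -0.46 beside 0.04 over all probe sets. The called gene was Ank1 (-1.45, SE 0.29, limma, adjusted p = 0.00386), which encodes erythroid ankyrin and also a short form of the muscle sarcoplasmic reticulum. Slc4a1, an abundant red cell membrane protein, averaged 49.5 ± 14.8 in KO_Adult and 144 ± 111 in WT_Adult (SD, n = 5 each; difference -0.98, adjusted p = 0.0818). With the poly-A split as a term none of the 6 was called.

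In KO_Aged against WT_Aged, Slc4a1 fell by 2.42 (SE 0.39, limma, adjusted p = 0.000315). It averaged 62.1 ± 8.74 in KO_Aged (SD, n = 4) and 354 ± 117 in WT_Aged (SD, n = 5). Slc4a1 followed the probe set for Hbb-b2 alone over the 19 arrays (r = 0.891). Since Hbb-b2 was known to be low in KO_Aged, the p-value of Slc4a1 is not independent of that knowledge. Bpgm, which makes the red cell regulator of oxygen release, fell by 0.88 (adjusted p = 0.00363), and Ank1 rose by 0.92 (adjusted p = 0.0345). With the poly-A split as a term 1 of these 3 calls was left. In WT_Aged against WT_Adult, Slc4a1 rose by 1.61 while Ank1 fell by 1.67 and Sptb, a spectrin chain, fell by 1.31, none of them called with the split term. The summed signal of the 20 markers was 2996 to 4173 in KO_Adult, 4017 to 7587 in WT_Adult, 4083 to 4423 in KO_Aged and 4039 to 6504 in WT_Aged, and most of it was Ank1 and Bpgm.

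Embryonic globins were not above the filter: Hba-x, Hbb-y and Hbb-bh1 had group means of at most 42.5, and so did Ngb, the neuronal globin. Cygb, the globin of fibroblast-like cells, averaged 443 ± 246 in KO_Adult and 491 ± 120 in WT_Adult (SD, n = 5 each; difference -0.17, limma, adjusted p = 0.779).

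The remaining enzymes and carriers of haem synthesis were set beside Alas2. Of 12 tested, 4 were called lower and 1 higher in KO_Adult against WT_Adult, with a median of -0.35. Alas1, the housekeeping form of the first enzyme, fell by 0.74 (SE 0.20, limma, adjusted p = 0.0185), averaging 1402 ± 257 in KO_Adult and 2361 ± 678 in WT_Adult (SD, n = 5 each). Ppox, the penultimate enzyme, fell by 0.95 (adjusted p = 0.0332), and Fech, which inserts iron, fell by 0.53 (adjusted p = 0.0379). None of the 12 was called with the poly-A split as a term, and 1 was called lower with median centring. Abcb10, a mitochondrial transporter, was the gene called higher in KO_Adult (0.94, limma, adjusted p = 0.045). In KO_Aged against WT_Aged only Abcb10 was called, and there it was lower (-1.41, adjusted p = 0.00404). The poly-A split coincides with genotype in this and every other aged genotype call.

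Of 9 genes for haem breakdown and scavenging none was called in adults, and 1, Slc40a1 (ferroportin, the iron exporter), fell by 0.66 in KO_Aged against WT_Aged (limma, adjusted p = 0.0238). Hp (haptoglobin, which binds free haemoglobin), Cd163 (its receptor on macrophages) and Hmox1 (haem oxygenase) rose in WT_Aged against WT_Adult by 2.24, 1.20 and 1.13. All 3 of these calls were lost with the poly-A split as a term. Of 6 genes for iron uptake and sensing none was called in adults, where Tfrc, the transferrin receptor, differed by -1.21 (adjusted p = 0.0702), and Hfe rose by 1.34 in KO_Aged against WT_Aged (adjusted p = 0.0168).

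Of the markers of other cells, most endothelial ones were called lower in adult knockout muscle, and fewer were in aged knockout muscle. No neutrophil, platelet or macrophage marker was called between genotypes at either age. The part of these other cells in the results was not tested. Of 16 endothelial markers, 13 were called lower in KO_Adult against WT_Adult (median -1.15), those of smallest p being Tie1 (-1.98), Sox18 (-1.45) and Aqp1 (-1.32), and 10 were called with the split term. In KO_Aged against WT_Aged Tie1 was called higher (0.85, limma, adjusted p = 0.00968). There 8 of the 16 markers were called lower and 7 were not called (median -0.53). Their summed signal was 7841 to 11460 in KO_Adult, 19887 to 25349 in WT_Adult, 8297 to 10633 in KO_Aged and 12770.3 to 15071 in WT_Aged. Aqp1, a water channel that is also a red cell protein, made up much of these sums. It averaged 4090 in KO_Adult, 9754 in WT_Adult, 3592 in KO_Aged and 5356 in WT_Aged. Of 6 tested neutrophil markers, 5 were called higher in WT_Aged against WT_Adult, as were 2 of 3 platelet and 3 of 6 macrophage markers, in a comparison that lies across the poly-A split. The neutrophil list summed to 534 to 4663 in KO_Adult, 634 to 2007 in WT_Adult, 7260.2 to 13239 in KO_Aged and 2634 to 13537 in WT_Aged. Platelet markers summed to 825 to 1399 in KO_Adult, 778 to 1021 in WT_Adult, 1629 to 2521 in KO_Aged and 993 to 2421 in WT_Aged. Macrophage markers summed to 1871 to 3865 in KO_Adult, 2059 to 3502 in WT_Adult, 4254 to 7563 in KO_Aged and 2219 to 8951 in WT_Aged. All 7 lymphocyte markers had group means under 100. No marker was at 0, since MAS5 signals here are at least 1.

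Genes of slow and oxidative fibres were set beside Mb. Of 14, 3 were called higher and 1 lower in KO_Adult against WT_Adult (median 0.25), with Tnnt1 (slow troponin T) at 1.58, Myoz2 (a Z-disc protein of slow fibres) at 0.87 and Myl3 (slow myosin light chain) at -1.62. In KO_Aged against WT_Aged 9 of 14 were called higher and none lower (median 2.05), those of smallest p being Myoz2 (2.75), Atp2a2 (the slow calcium pump, 2.35) and Tnnt1 (4.16), and 3 were called with the split term. Mb, whose normalized values lay in a narrow band near the top of every array, differed by 0.20 there. Of 12 fast fibre genes none was called in adults and 1, Atp2a1 (the fast calcium pump, 0.47), rose in KO_Aged against WT_Aged. Of 10 regulators of hypoxia or calcium responses, 2 were called in KO_Adult against WT_Adult. Epas1 (HIF-2 alpha) fell by 2.03 (limma, adjusted p = 0.0255) and Egln1 (an oxygen-sensing hydroxylase) by 0.48 (adjusted p = 0.0407). Epas1 was very uneven in WT_Adult, at 523 ± 592 against 94.0 ± 69.7 in KO_Adult (SD, n = 5 each). In KO_Aged against WT_Aged only Egln3 was called, and it rose by 1.08 (limma, adjusted p = 0.00254).

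**Figure D5:**
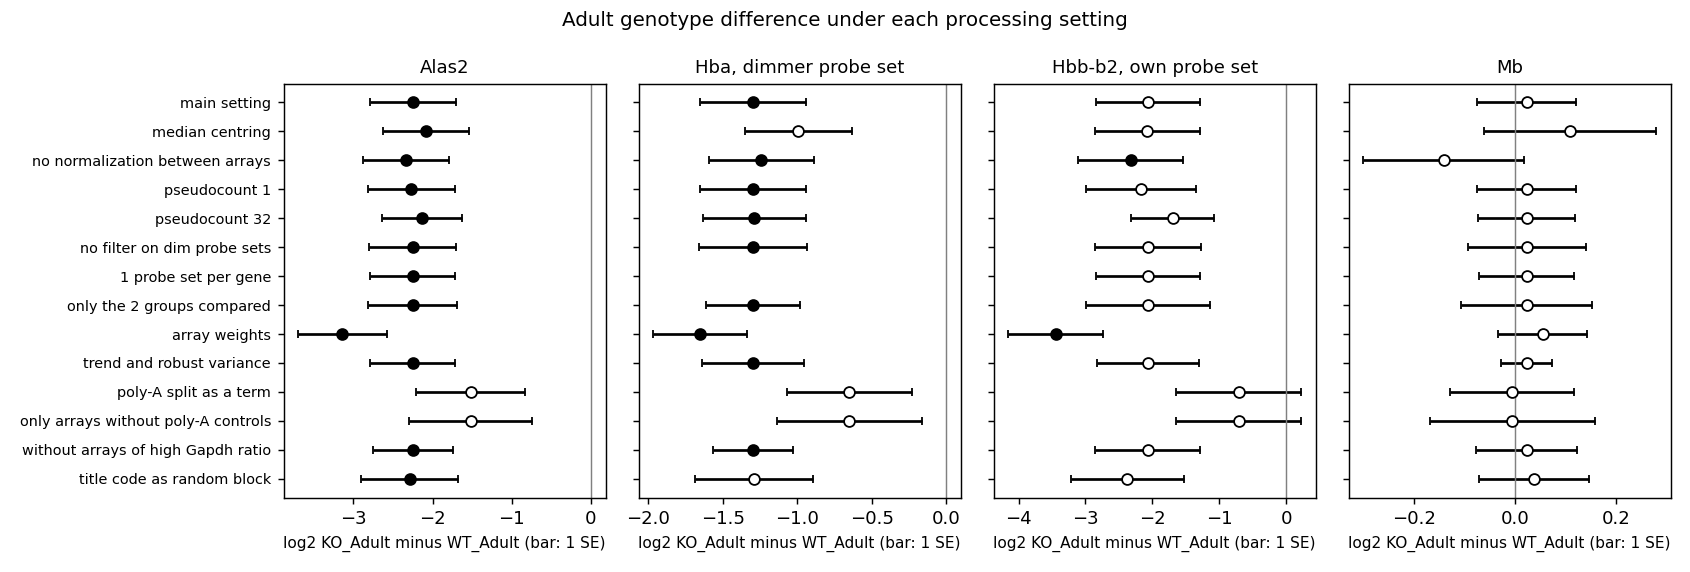
Normalized log2 difference of KO_Adult minus WT_Adult for Alas2, the dimmer Hba probe set, Hbb-b2 and Mb under each processing setting, with bars of 1 SE and filled points where the adjusted p was under 0.05. Alas2 lies between -3.14 and -1.52 and its call was lost in both settings that take account of the poly-A controls.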

How the data were processed

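The authors deposited a table of linear intensity values, which the submitters' processing notes credit to MAS5, without a version or scaling target in the sources used here. Of 22690 probe sets, 64 control probe sets were set aside. The others were put on the log2(value + 4.76) scale, where 4.76 is percentile 10 of all values, and quantile normalized over 22626 probe sets. The upper 60% by mean, 13575 probe sets, were tested one by one, because globin probe sets name several genes. A model with a mean per group was fitted over all 19 arrays (lmFit and eBayes of limma 3.58.1, under R 4.3.3), with Benjamini-Hochberg adjustment over all tested probe sets and calls at an adjusted p under 0.05. A log2 difference on this scale understates the change of dim probe sets. The fit was tested on simulated data with independent noise. These held no poly-A split and no shared title codes, so that test does not bear on either. Single values of the listed genes had an exact permutation test over the adult arrays. The permutation tests planned for correlations over all 19 arrays are not reported, since those include the aged arrays through which Hbb-b2 was known. Python 3.11.15 served for the rest, with scipy 1.17.1, numpy 2.4.6, pandas 2.3.3 and matplotlib 3.10.9.

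The listed genes, the gene lists and the alternatives were chosen with earlier results of these data known, and the listed genes were tested between adult genotypes alone. In the lists a gene is its brightest probe set that names 1 gene, and the 3 genes of smallest p are named per list and comparison, along with the 5 probe sets nearest to a listed gene; dim markers named as examples were picked after their values were seen. Of the probe sets, 20380 had 1 symbol in the annotation, 691 had several and 1555 had none. Alternatives covered normalization, pseudocount (1 and 32), the dim filter, 1 probe set per gene, only the groups compared, array weights, the variance model, the poly-A split (dap signal over 500), arrays with a Gapdh ratio over 3, the title codes and leaving out each array. The number of arrays limits the precision. Detection calls were left aside. Promoter sequences are RefSeq's (GRCm38.p6); those of Hbb-b2 and Hbb-b1 are not shown.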

Additional observations from a re-analysis of the deposited data

Results flagged for a closer look

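Among the 28 combinations of a tested probe set and a group, the highest or lowest array stood apart from the rest of its group in 2, about the 1 in 20 that chance gives. WT_Aged replicate 3 was the highest of its group for Alas2, at a normalized log2 signal of 11.89 (3798 before normalization). WT_Adult replicate 2 was the lowest of its group for Mb, at 14.42 (20022 before normalization).

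For 24 of the 101 tested genes of the pathway and cell type lists (23.8%), the genotype difference in aged muscle was not that in adult muscle by a test of the interaction in limma (adjusted p under 0.05, beside 26.7% of all probe sets). Values are the difference in aged minus that in adult muscle on the log2 scale. In haem synthesis they were -2.35 for Abcb10, 1.59 for Ppox and 1.01 for Slc25a39, and for the red cell and muscle ankyrin Ank1 the value was 2.37. Among endothelial genes they were 2.83 for Tie1, 1.85 for Pecam1, 1.39 for Ramp2, 1.07 for Eng, 1.04 for Emcn, 0.84 for Tek, 0.78 for Aqp1 and -1.22 for Sox17. Among slow and oxidative fibre genes they were 4.67 for Myl2, 2.58 for Tnnt1, 2.56 for Tnni1, 2.36 for Tnnc1, 1.89 for Myoz2, 1.70 for Myh2 and 1.64 for Atp2a2, and among fast fibre genes 0.59 for Atp2a1 and 0.54 for Casq1. Among the regulators they were 1.31 for Egln3, 0.77 for Mef2d and 0.65 for Egln1. With the poly-A split as a term in the model none of the 24 was called in limma (lowest adjusted p 0.226), nor was any other probe set, and 21 of the 24 had the same sign, Aqp1, Emcn and Pecam1 being the exceptions.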

How the results depend on the processing

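No paired analysis was possible, because no label pairs arrays between groups and no 2 groups share more than 1 title code. The fit with title codes as a random block stands in for it. Under the other processing settings, 314 values of the listed genes counted as held and 28 did not. With 1 array left out, 526 did and 6 did not. A tested value was held if it kept its side of the threshold, and its direction wherever either fit passed. An untested value was held if it stayed within 1 SD of the reported value. A value near 0 could thus change sign and count as held, as bright Hba probe set 1 did in adults with array weights (0.07). For KO_Adult minus WT_Adult, Alas2 missed the threshold with the poly-A split as a term (-1.52, limma, adjusted p = 0.213) and over the arrays without poly-A controls (-1.52, adjusted p = 0.386); it held its call in every fit that left out 1 array, at -2.57 to -1.80. The dimmer Hba probe set missed it with the split term (-0.65, adjusted p = 0.385), over the arrays without controls (-0.65, adjusted p = 0.547), with median centring (-0.99, adjusted p = 0.0661) and with title codes as a random block (-1.29, adjusted p = 0.0589), and ranged from -1.49 to -1.12 with 1 array left out. Hbb-b2 alone passed with no normalization between arrays (-2.32, adjusted p = 0.0477) and with array weights (-3.44, adjusted p = 0.000765), and ranged from -2.51 to -1.32 with 1 array left out. With the split term KO_Aged minus WT_Aged became -3.51 for Alas2, -2.84 for the dimmer Hba probe set, -0.36 for bright Hba probe set 2, -0.40 for the shared Hbb probe set and -6.45 for Hbb-b2, and WT_Aged minus WT_Adult became 1.81, 1.73, 0.30, 0.39 and 4.67 for the same probe sets. With no normalization, WT_Aged minus WT_Adult became -0.33 for bright Hba probe set 1, -0.34 for bright Hba probe set 2, -0.26 for the shared Hbb probe set and -0.35 for Mb, KO_Aged minus WT_Aged 0.38 and KO_Aged minus KO_Adult 0.17 for Mb; with median centring those of Mb were -0.18, 0.31 and 0.027. Without the arrays of high Gapdh ratio, KO_Aged minus WT_Aged of bright Hba probe set 2 was 0.16. The causes were not tested. The number of probe sets called moved by over 1.5 times in these cases. In KO_Adult minus WT_Adult 1986 became 773 with only these groups, 6955 with array weights, 510 with the split term, 88 over the arrays without controls, 848 with title codes as a block and 1100 to 2697 with 1 array left out. In KO_Aged minus WT_Aged 3767 became 527 with the split term, 2005 without the arrays of high Gapdh ratio and 2473 with 1 probe set per gene. In WT_Aged minus WT_Adult 5266 became 5 with the split term, 3293 with 1 probe set per gene and 8199 with array weights. In KO_Aged minus KO_Adult 915 became 590 with no filter, 606 with 1 probe set per gene, 66 with only these groups, 2475 with array weights, 24 over the arrays without controls, 185 without the arrays of high Gapdh ratio and 305 to 1237 with 1 array left out. KO_Aged minus WT_Aged and WT_Aged minus WT_Adult could not be fitted over the arrays without controls, which hold no WT_Aged array.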
